A study of Mus musculus with 12 samples.

Results

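Haem synthesis in whole blood was followed through 9 genes, 7 enzymes of the pathway and 2 carriers that bring its substrates into mitochondria. The members were taken by gene symbol, which gave 9 of the 55367 genes counted. All 9 were among the 13384 genes that passed the filter on low counts. Enzymes outside this list, apart from Alas1, are not described. The blood came from CB17-SCID mice bearing HT1376 tumours, a xenografted human bladder cancer line, and both the vehicle mice and the treated mice carried the graft. SCID mice make no mature T or B cells and keep myeloid, NK and red cells. One group received vehicle, and 3 groups received CPI0209, an inhibitor of the histone methyltransferases EZH2 and EZH1, at 35 mpk (mg per kg) by mouth once daily for 11 days. Blood was taken 1, 6 or 24 h after the last dose, with 3 libraries in each of the 4 groups. The labels do not say when vehicle mice were bled, nor the age or sex of the mice, nor whether blood was pooled, and p-values measure only the spread between these libraries.

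Haem is built in red cell precursors and, while mitochondria last, in reticulocytes, the young red cells that still hold RNA. Alas2, the erythroid form of the first enzyme, joins glycine and succinyl-CoA inside the mitochondrion. Alad, Uros and Urod work in the cytosol, where they assemble, close and decarboxylate the porphyrin ring. Cpox and Ppox, back in the mitochondrion, oxidise it, and Fech inserts iron to complete haem. Slc25a37 (mitoferrin 1) imports the iron and Slc25a38 imports glycine. In bulk blood, fewer cells of a type and less RNA per cell cannot be told apart.

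The stretches before 4 of the transcription starts are shown: Alas2, the most abundant member, Alad and Urod, which rose at 6 h, and Cpox. The Alas2 and Cpox stretches share a motif, GATAA, that those of Alad and Urod lack. Uros also rose at 6 h and holds GATAA before its downstream start, which is not shown. For Alad the stretch before the upstream start is given. The stretches are RefSeq sequences of GRCm38.p6, 5′ to 3′ on the gene's strand, with capitals for GATAA and CACCC on either strand:
Alas2, chrX:150547167-150547374, plus strand: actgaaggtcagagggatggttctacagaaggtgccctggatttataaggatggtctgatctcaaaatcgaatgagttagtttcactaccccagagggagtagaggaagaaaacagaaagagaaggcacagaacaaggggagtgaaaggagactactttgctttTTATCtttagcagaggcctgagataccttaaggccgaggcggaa
Cpox, chr16:58669958-58670207, plus strand: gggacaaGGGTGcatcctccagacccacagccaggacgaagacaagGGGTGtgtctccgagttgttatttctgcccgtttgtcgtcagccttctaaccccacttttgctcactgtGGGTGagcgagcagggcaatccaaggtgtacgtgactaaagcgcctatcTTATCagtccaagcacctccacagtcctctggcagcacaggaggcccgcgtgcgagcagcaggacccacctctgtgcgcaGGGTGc
Alad, chr4:62520064-62520313, minus strand: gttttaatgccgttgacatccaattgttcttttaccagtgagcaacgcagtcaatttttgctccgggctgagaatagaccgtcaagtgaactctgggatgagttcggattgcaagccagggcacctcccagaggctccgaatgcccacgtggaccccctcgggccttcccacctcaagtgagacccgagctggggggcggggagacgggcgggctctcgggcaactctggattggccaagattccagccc
Urod, chr4:116994414-116994663, minus strand: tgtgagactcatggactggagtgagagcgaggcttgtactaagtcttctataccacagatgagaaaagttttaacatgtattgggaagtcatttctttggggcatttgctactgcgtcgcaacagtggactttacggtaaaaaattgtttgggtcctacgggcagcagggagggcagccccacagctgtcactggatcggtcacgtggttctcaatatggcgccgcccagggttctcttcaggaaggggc

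RefSeq starts were found for 7 of the 9 members, with 9 starts in all, and motifs were searched in the 250 bases before each. GATAA, read as TTATC on the other strand, is the core bound by GATA factors. It occurred once before Alas2 and once before Cpox, in both 86 bases before the start, and once 68 bases before the downstream start of Uros. It was not found before Ppox, Urod, Slc25a38, the upstream start of Uros or either start of Alad. Of 32851 windows of that length, 22.6% held it. CACCC, the core of the KLF1 box, was found 4 times before Cpox and 3 times before Alas2, within 40 bases of the start and beyond the stretch shown. It was found once before Slc25a38 and once before the downstream Alad start, and 52% of all windows held it. TGANTCA, the NF-E2 core, was in none of the 9 windows and in 6.75% of all. The Alas2 stretch shown ends at the last base before the annotated gene start, 150547375. The 3 CACCC matches of Alas2 therefore lie inside the annotated gene. Windows before Slc25a38, both Uros starts and the downstream Alad start also hold annotated exon bases. A match is only a run of letters.

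Total counts ran from 6496573 to 9978215 per library. Markers of red cells, neutrophils, monocytes, NK cells and platelets were present in every library. The 5 B cell markers summed to 0.215 to 4.11 CPM (normalised counts, with library sizes scaled by TMM), with Ms4a1 at 0 counts throughout. The mean log2 CPM of 25 red cell markers, none of them a haem synthesis gene, lay between 6.54 and 6.83 in vehicle. It reached 7.14 to 7.37 in the 1 h group and 8.01 to 8.15 in the 6 h group. Libraries of the 24 h group stood apart from each other, with 6.04, 6.57 and 7.62. Results at 24 h are therefore given with and without replicate 3. Scaling by library totals alone lowered the median log2 change of all genes at 6 h by 0.457, with 344 genes higher and 1511 lower in place of 552 and 107.

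The 9 genes fell into an abundant and a scarce class. Alas2, Slc25a37 and Fech each had at least 8465 CPM in every vehicle library and together took 3.54% to 6.97% of all counts in a library. The other 6 members had 47 to 3210 counts each per library. Alas2 was among the 3 genes with the most counts in every library, and Slc25a37 and Fech were among the first 13. In vehicle Alas2 alone took 3.87% of counts in replicate 1 (95% exact Clopper-Pearson interval 3.85% to 3.88%, counting error only). Its shares in replicates 2 and 3 were 3.38% and 3.65%.

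Per kilobase of annotated exon, vehicle levels were 14023 ± 1006 CPM per kb for Alas2, 1594 ± 178 for Slc25a37 and 704 ± 40.4 for Fech (SD, n = 3). Urod followed at 48.5 ± 1.78 CPM per kb, Alad at 14.0 ± 1.94 and Slc25a38 at 7.95 ± 2.50. The lowest were Ppox at 2.67 ± 0.890, Cpox at 1.88 ± 0.184 and Uros at 1.67 ± 0.127 CPM per kb. Neighbours above Ppox in this order had separate vehicle ranges. Ppox (2.06 to 3.69 CPM per kb) and Cpox (1.68 to 2.04) differed by less than the SD of Ppox, and Cpox overlapped Uros (1.53 to 1.77). At 6 h Uros, at 5.64 ± 2.01 CPM per kb, stood above Ppox (3.32 ± 1.51) and Cpox (2.90 ± 0.774), with overlapping ranges. Lengths are unions of all annotated exons, 13838 bases for Fech, so a gene with long rare exons is set too low.

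**Figure D1:**
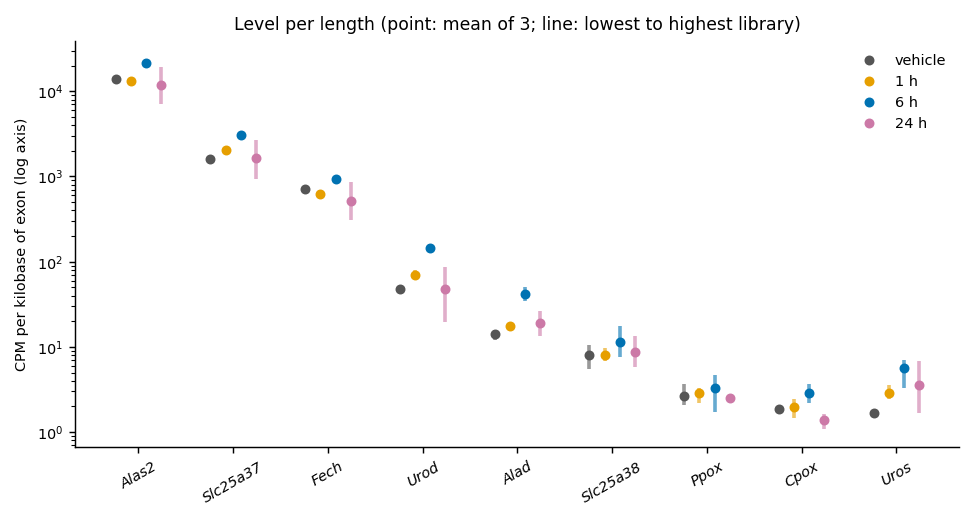
Mean level of each gene in CPM per kilobase of annotated exon on a log axis, for vehicle and 1, 6 and 24 h after the last CPI0209 dose (n = 3, lines from the lowest to the highest library). Alas2, Slc25a37 and Fech lie above the other 6 genes in every group.

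Alad, Uros and Urod, the cytosolic enzymes, were higher at 6 h than in vehicle, by 2.97, 3.36 and 2.98 times. They were the 3 of 9 members called at 6 h (edgeR adjusted p under 0.05 over all genes), all higher, where 4.12% of all genes tested were called higher. The median log2 change of the 9 members was 0.63, against -0.04 over all genes. In 7 of the 9 every 6 h library lay above every vehicle library, which held for 15.8% of all genes. The exceptions were Ppox and Slc25a38.

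Alad, which condenses the first product into porphobilinogen (ENSMUSG00000028393, GRCm38 chromosome 4, 62509169 to 62519918, minus strand), stood at 22.4, 26.8 and 29.6 CPM in vehicle and 75.9, 64.8 and 93.8 CPM at 6 h. The lowest 6 h library was more than 2 times the highest vehicle library. Its log2 fold change was 1.57 (SE 0.23, 95% interval 1.07 to 2.07, edgeR adjusted p = 0.0016). Alad kept its call in all 12 fits that left out 1 library. Its adjusted p there ran from 3.6e-05 to 0.015.

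Urod, uroporphyrinogen decarboxylase (ENSMUSG00000028684, chromosome 4, 116989965 to 116994413, minus strand), had 120, 127 and 129 CPM in vehicle. At 6 h it had 362, 348 and 413 CPM. Vehicle libraries lay close together (CV 3.68%) and far below those at 6 h. The log2 fold change was 1.58 (SE 0.36, 95% interval 0.81 to 2.34, edgeR adjusted p = 0.021). Leaving out any vehicle or any 6 h library raised the adjusted p above the threshold, to at most 0.091, while the log2 fold change stayed between 1.501 and 1.627.

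Uros, which closes the ring (ENSMUSG00000030979, chromosome 7, 133686243 to 133710072, minus strand), had 5.46, 6.34 and 6.11 CPM in vehicle, from 47, 59 and 48 counts. At 6 h it had 24.9, 11.9 and 23.7 CPM, so replicate 2 lay well below the other two and still above vehicle. The log2 fold change was 1.75 (SE 0.44, 95% interval 0.81 to 2.69, edgeR adjusted p = 0.035). The call was lost in 7 of the 12 fits that left out 1 library, those without any vehicle library among them, with an adjusted p of at most 0.13.

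**Figure D2:**
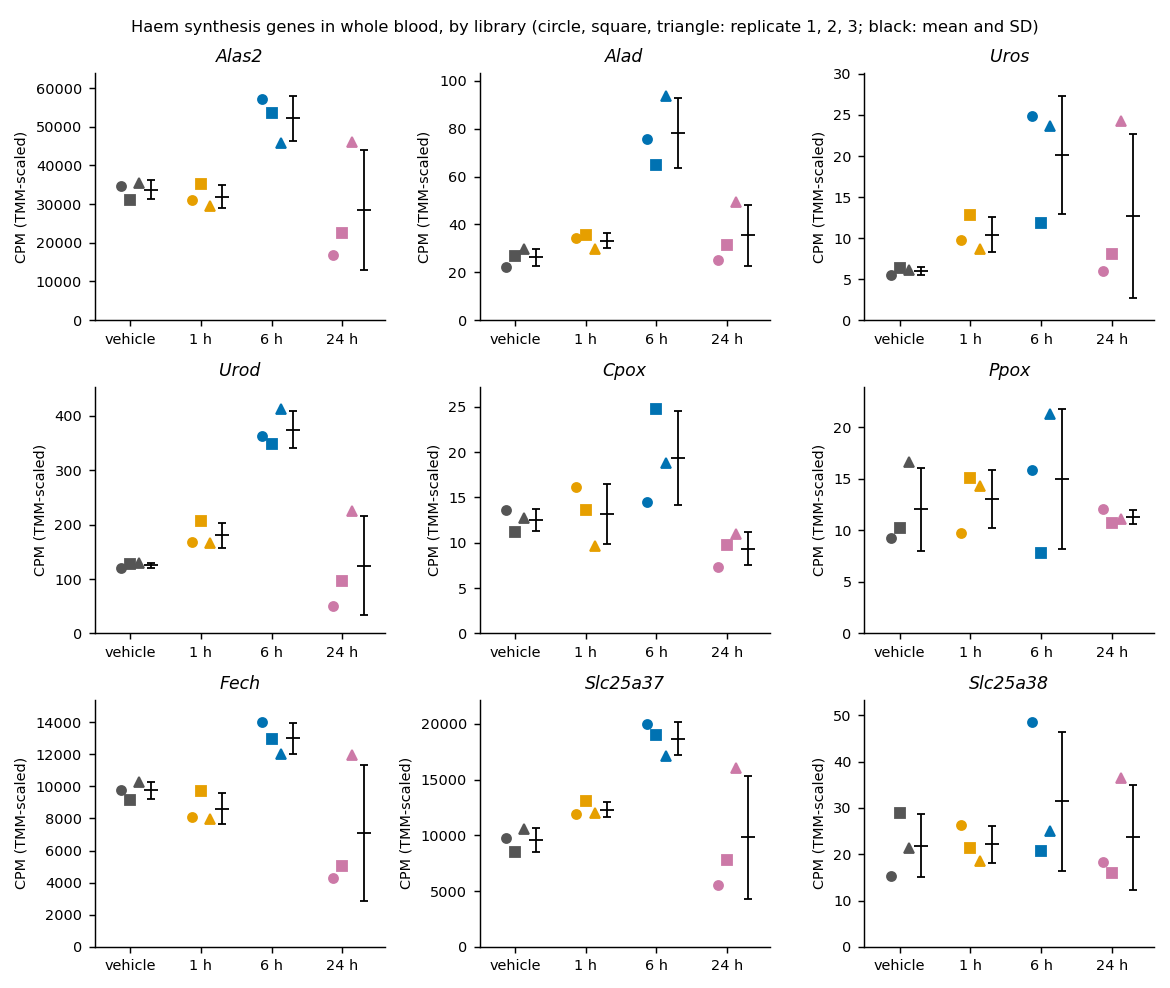
Level of each of the 9 genes in every library, in TMM-scaled CPM on linear axes from 0, by group, with the mean and SD in black (n = 3). Alad and Urod at 6 h lie above all libraries of the other groups, and at 24 h replicate 3 lies above the other 2 libraries for all genes except Ppox.

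None of the mitochondrial steps passed at 6 h. Alas2 (ENSMUSG00000025270, chromosome X, 150547375 to 150570638, plus strand) had 34612, 30956 and 35525 CPM in vehicle and 57194, 53646 and 45840 CPM at 6 h. The groups did not overlap, yet the log2 fold change of 0.63 (SE 0.34, 95% interval -0.10 to 1.37) had an edgeR adjusted p of 0.33. With library totals alone it was 0.17, and its share of counts at 6 h (4.38%, 4.35% and 3.57%) overlapped that of vehicle. Alas1, the form used by cells other than the red lineage, was far scarcer, at 18.7 ± 5.41 CPM in vehicle and 15.1 ± 3.65 at 6 h (SD, n = 3; adjusted p = 0.61).

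Fech (ENSMUSG00000024588, chromosome 18, 64452914 to 64490251, minus strand) had 9788, 9159 and 10275 CPM in vehicle and 13992, 12958 and 12046 CPM at 6 h. Its log2 fold change was 0.42 (SE 0.33, edgeR adjusted p = 0.53), and with library totals alone it was -0.04. Cpox (chromosome 16, 58670292 to 58717636, plus strand) went from 13.6, 11.2 and 12.7 CPM to 14.5, 24.8 and 18.8 CPM, with a log2 fold change of 0.63 (SE 0.26, adjusted p = 0.18). Ppox (chromosome 1, 171275990 to 171281186, minus strand) had 9.30, 10.2 and 16.7 CPM in vehicle and 15.8, 7.80 and 21.3 CPM at 6 h, so the groups overlapped. Its log2 fold change of 0.31 (SE 0.33, adjusted p = 0.65) turned to -0.14 with library totals alone. Ppox shares 791 exon bases with B4galt3 on the opposite strand, which drew 2999 counts against 1252 for Ppox, and the labels do not say whether counting used strand. Its values are uncertain for that reason, and those of Cpox, which shares 204 bases with Gpr15 (240 counts against 1315), to a lesser degree.

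Neither carrier passed at 6 h. Slc25a37 (ENSMUSG00000034248, chromosome 14, 69241848 to 69285112, minus strand) had 9731, 8465 and 10598 CPM in vehicle and 19973, 18957 and 17081 CPM at 6 h. The libraries of each group lay close together and the groups far apart. The log2 fold change was 0.96 (SE 0.33, 95% interval 0.25 to 1.67), which missed the threshold in edgeR (adjusted p = 0.12). DESeq2 called it (adjusted p = 0.018), as did the fit of vehicle and 6 h libraries alone (adjusted p = 3.0e-04). Slc25a38 (ENSMUSG00000032519, chromosome 9, 120110374 to 120124504, plus strand) had 15.2, 28.9 and 21.4 CPM in vehicle and 48.5, 20.8 and 24.9 CPM at 6 h. Only replicate 1 stood out, and the log2 fold change was 0.52 (SE 0.36, adjusted p = 0.46).

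The fit of vehicle and 6 h libraries alone called 6 of the 9 members, all higher, with Alas2 (adjusted p = 0.0037), Fech (adjusted p = 0.028) and Slc25a37 added, where 8.81% of all genes were called higher. Leaving out 24 h replicate 3, which enters the shared estimate of spread, gave 5 members, with Alas2 (adjusted p = 0.016) and Slc25a37 (adjusted p = 0.00071) added, and 7.15% of all genes were called higher. Leaving out any vehicle library, or 6 h replicate 1 or 3, gave 1 member, with 1.53% to 2.19% of all genes called higher.

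At 1 h no member passed in edgeR, in either direction, and 0 had an unadjusted p under 0.05. In that fit 0.194% of all genes were called. DESeq2 and limma-voom called 0 members as well, with 1.21% and 0.127% of all genes called. Uros, Urod and Slc25a37 lay above vehicle in all 3 libraries, as did 8.92% of all genes, and 0 lay below (8.44% of all genes). Urod had 168, 207 and 166 CPM at 1 h, a log2 fold change of 0.52 (SE 0.35, 95% interval -0.23 to 1.28). Uros had 9.80, 12.8 and 8.72 CPM (0.80, SE 0.44), and Slc25a37 had 11881, 13045 and 11956 CPM (0.36, SE 0.33). Alas2, at 31037, 35281 and 29450 CPM (-0.08, SE 0.34), and Fech, at 8099, 9702 and 7980 CPM (-0.18, SE 0.33), overlapped vehicle. The 1 h values of Alad (34.3, 35.5 and 29.6 CPM) ran from just below the highest vehicle library upward.

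At 24 h no member passed in edgeR, with 0.12% of all genes called, and 1 had an unadjusted p under 0.05. That was Uros, at 5.94, 8.01 and 24.2 CPM (log2 fold change 1.07, SE 0.44, adjusted p = 0.55). DESeq2 and limma-voom called 0 members, with 0.68% and 0.0523% of all genes called. The 3 libraries differed widely: Alas2 stood at 16870, 22566 and 45966 CPM, Urod at 51.3, 97.2 and 226 CPM, and Fech at 4311, 5027 and 11960 CPM. Replicates 1 and 2 lay below every vehicle library for these 3 genes, and replicate 3 above. Slc25a37, at 5585, 7786 and 16069 CPM, was spread the same way. Red cell markers differed in the same order, at 6.04, 6.57 and 7.62 mean log2 CPM, and their part in these values was not tested. Cpox was the only member whose 24 h libraries, at 7.34, 9.75 and 10.9 CPM, all lay below vehicle, as did 5.61% of all genes.

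Without 24 h replicate 3, Fech was called lower than in vehicle, with a log2 fold change of -1.06 in place of -0.46 (edgeR adjusted p = 0.0080 in place of 0.78). Under the same omission Alas2 went from -0.24 to -0.78 (adjusted p = 0.053) and Urod from -0.01 to -0.76 (adjusted p = 0.12). Uros went from 1.07 to 0.22 (adjusted p = 0.82) and Alad from 0.43 to 0.11 (adjusted p = 0.87). Slc25a37 turned from 0.03 to -0.52 (adjusted p = 0.18) and Slc25a38 from 0.10 to -0.35 (adjusted p = 0.70). Cpox went from -0.42 to -0.55 and Ppox from -0.09 to -0.08. That fit rests on 2 libraries at 24 h and called 0.561% of all genes lower. Replicate 3 was the highest 24 h library for every member except Ppox, so leaving it out lowers most values by construction. With 24 h replicate 1 left out instead, Alas2 stood at 0.024 and Urod at 0.36. That fit called 0 members and 0.287% of all genes. Fech was called at 24 h in 1 of the 12 fits that left out 1 library.

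**Figure D3:**
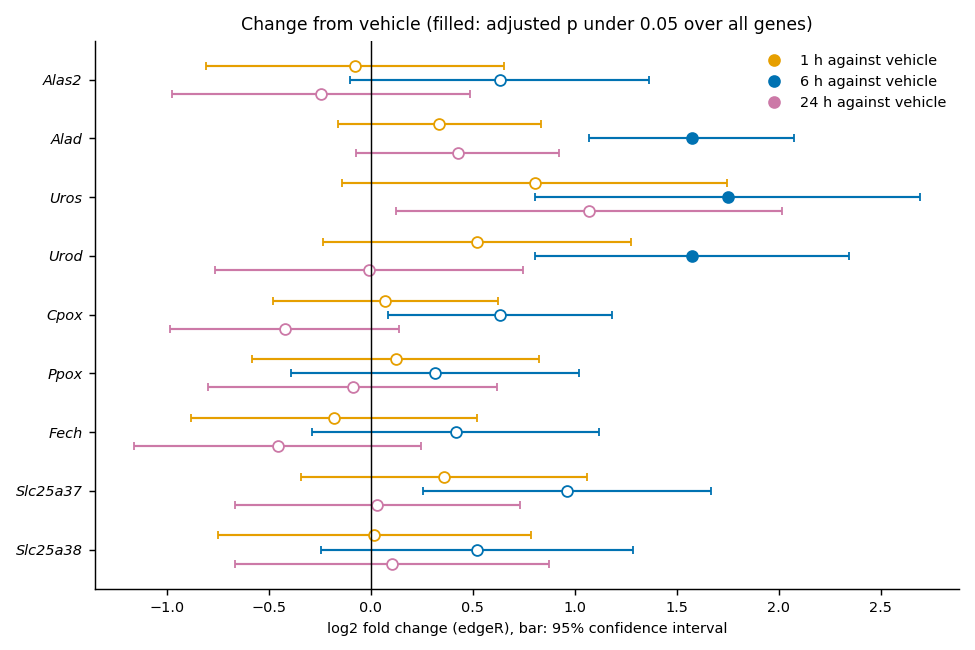
Log2 fold change of each gene against vehicle at 1, 6 and 24 h with its 95% interval from edgeR, filled where the adjusted p was under 0.05. Alad, Uros and Urod at 6 h, at 1.57, 1.75 and 1.58, are the 3 filled points, and the comparisons share the same 3 vehicle libraries.

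Between the times, Alad was higher at 6 h than at 1 h (log2 fold change 1.24, SE 0.23, edgeR adjusted p = 0.036), the 1 member called there, where 0.149% of all genes were called higher. From 6 to 24 h Alad (-1.15, SE 0.23, adjusted p = 0.031) and Urod (-1.59, SE 0.36, adjusted p = 0.043) were lower, 2 of 9 members, where 1.84% of all genes were called and 1.29% were called lower. Cpox missed the threshold (-1.05, SE 0.26, adjusted p = 0.051) and passed in DESeq2 (adjusted p = 0.0051) and limma-voom (adjusted p = 0.036). Fitted on the 6 and 24 h libraries alone, 0 members and 0 of all genes were called. With all libraries, all 9 members were on the lower side from 6 to 24 h, with a median of -0.88. Ppox and Slc25a38 turned to 0.13 and 0.03 with library totals alone. These calls were not firm: Alad lost its call in 8 of the 12 fits that left out 1 library for 6 against 1 h and in 9 for 24 against 6 h, and Urod in 11. Without 24 h replicate 3, 7 members were called lower from 6 to 24 h, where 10.2% of all genes were, Alas2 (-1.41, adjusted p = 7.9e-05) and Fech (-1.48, adjusted p = 3.1e-05) among them. The same omission gave 6 members higher at 6 h than at 1 h (6.57% of all genes). It gave 3 members lower at 24 h than at 1 h (1.46% of all genes), where 0 of 9 were called with all libraries (0.0224% of all genes, with 0 members at an unadjusted p under 0.05 and 0 called by DESeq2 or limma-voom). With all libraries, 0 members were lower without overlap at 24 h than at 1 h (4.74% of all genes).

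For the mean of the 3 times against vehicle, 0 of 9 members passed in edgeR, with 0.941% of all genes called (0.889% higher and 0.0523% lower), and 3 had an unadjusted p under 0.05. These were Alad (0.78, SE 0.20, adjusted p = 0.091), Uros (1.21, SE 0.38, adjusted p = 0.20) and Urod (0.69, SE 0.30, adjusted p = 0.42). DESeq2 called Alad (adjusted p = 0.010) and Uros (adjusted p = 0.039), and limma-voom called 0 members. Of all genes, DESeq2 called 2.76% and limma-voom 0.994%. Leaving out 24 h replicate 1 gave 3 members, these same 3 genes, with 2.3% of all genes called higher. For no member did all 9 treated libraries lie above all 3 vehicle libraries, as 1.3% of all genes did, or below them, as 0.77% did.

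Ratios between members of one library do not depend on how libraries are scaled, and were computed after the data had been seen, as counts per 1000 Alas2 counts. The balance of the 3 abundant transcripts was tight within groups and differed between them. Slc25a37 had 281, 273 and 298 counts per 1000 Alas2 counts in vehicle. After 1 h it had 383, 370 and 406, at 6 h 349, 353 and 373, and in the 24 h libraries 331, 345 and 350. All 9 treated libraries lay above the 3 vehicle libraries. The fold change of the ratio was 1.36 at 1 h, 1.261 at 6 h and 1.203 at 24 h. The 24 h libraries, from 16870 to 45966 in Alas2 CPM, lay close together in this ratio. Fech went the other way, from 283, 296 and 289 per 1000 in vehicle to 261, 275 and 271 after 1 h. It had 245, 242 and 263 per 1000 after 6 h, then 256, 223 and 260 after 24 h. All 9 treated libraries lay below vehicle, by ratios of 0.930, 0.863 and 0.849. The share of all genes with all 9 treated ratios on one side of vehicle was not computed.

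Among the scarce members, Urod had 3.48, 4.12 and 3.63 counts per 1000 Alas2 counts in vehicle and 5.41, 5.86 and 5.62 after 1 h. It had 6.33, 6.48 and 9.002 after 6 h, then 3.04, 4.31 and 4.92 after 24 h. Its ratio was thus above vehicle in every library at 1 and 6 h (1.51 and 1.92 times) and overlapped vehicle at 24 h. Alad had 0.648, 0.865 and 0.835 per 1000 in vehicle and 1.33, 1.21 and 2.05 at 6 h, 1.91 times higher. At 24 h Alad still had 1.49, 1.40 and 1.08 per 1000, above vehicle in every library although its CPM overlapped vehicle. Uros had 0.158, 0.205 and 0.172 per 1000 in vehicle and 0.352, 0.355 and 0.527 at 24 h, 2.28 times higher. The ratios of Cpox, Ppox and Slc25a38 overlapped vehicle at all 3 times.

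Of the 8 members other than Alas2, 4 had a ratio above vehicle in every library at 1 h and 1 below, against 10.4% and 4.65% of all genes. At 6 h 4 were above (4.25% of all genes) and 1 below (48.3%). At 24 h 3 were above (7.46%) and 1 below (0.658%). Each of these separations has a two-sided exact permutation p of 0.1, the smallest that 3 against 3 libraries can give, so none can pass 0.05. Over the 27 comparisons made (8 members and Alas1 at 3 times) the Benjamini-Hochberg adjusted value was 0.18.

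**Figure D4:**
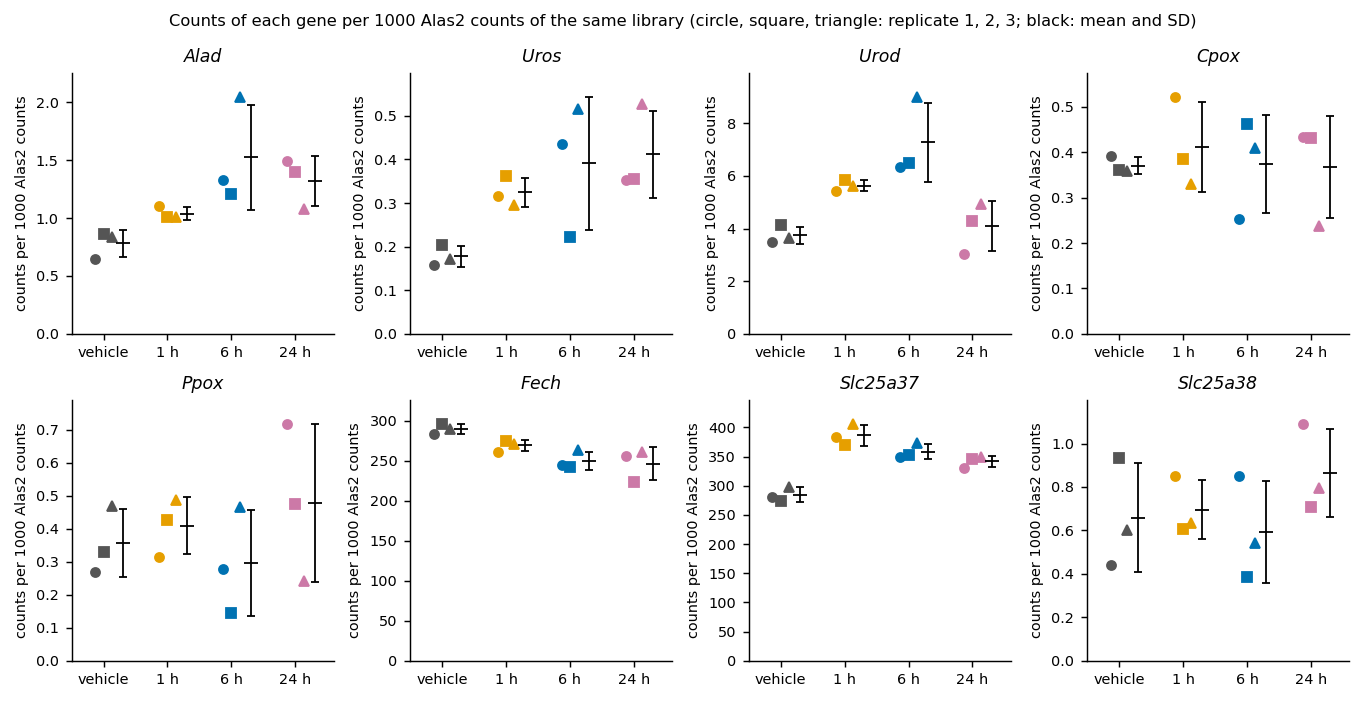
Counts of each gene per 1000 Alas2 counts of the same library, on linear axes from 0, by group, with the mean and SD in black (n = 3). All 9 treated libraries lie above vehicle for Slc25a37 and below vehicle for Fech, and the share of all genes for which that holds was not computed.

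Against the red cell markers the members also differed among themselves. Of the 25 markers 15 were called higher at 6 h, with a median log2 change of 1.38, where 4.12% of all genes were called higher. Slc4a1, the anion exchanger, rose from 1697 ± 294 to 7451 ± 372 CPM, and Epb42, a membrane skeleton protein, from 125 ± 24.7 to 1112 ± 127 CPM (SD, n = 3). Markers moved unequally: Ermap had 132 ± 19.4 CPM in vehicle and 158 ± 42.2 at 6 h, and Slc2a1 had 47.4 ± 15.9 and 41.2 ± 6.10. At 1 h 0 of the 25 were called, with a median log2 change of 0.74, where 0.194% of all genes were called. The log2 CPM of Alas2 exceeded the marker mean by 8.39 ± 0.13 in vehicle (SD, n = 3). After 1 h the difference was 7.70 ± 0.05, after 6 h 7.59 ± 0.15, and after 24 h 7.92 ± 0.07. It was thus smaller in every treated library than in any vehicle library. That of Fech went from 6.60 ± 0.11 to 5.80 ± 0.08, 5.59 ± 0.08 and 5.89 ± 0.15, also without overlap. That of Urod was 0.33 ± 0.13 in vehicle, 0.22 ± 0.10 at 1 h and 0.47 ± 0.14 at 6 h, with overlapping libraries. That of Alad was -1.93 ± 0.11 in vehicle, -2.21 ± 0.04 at 1 h, below every vehicle library, and -1.80 ± 0.26 at 6 h, overlapping vehicle. Slc25a37, at 6.58 ± 0.12 in vehicle, was also lower in every treated library (6.32 ± 0.08 after 1 h, 6.11 ± 0.10 after 6 h, 6.37 ± 0.03 after 24 h). Cpox lay below vehicle in every library at 1 and 6 h and Ppox at 6 h, and Uros lay above vehicle at 24 h. In all, 5 members lay below vehicle without overlap at 1 h, 5 at 6 h and 3 at 24 h, and 1 lay above, at 24 h. Over all genes 52.2% lay below at 1 h, 83.8% at 6 h and 4.86% at 24 h, and 1.06%, 0.904% and 1.53% lay above. At 1 h and 6 h most genes lay below vehicle on this scale, so the lower members do not stand out there. Neutrophil markers summed to 4330 to 7766 CPM in vehicle and 5884 to 9369 at 6 h, and monocyte markers to 1142 to 1422 and 842 to 927 CPM. Their part in the members' values was not tested.

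**Figure D5:**
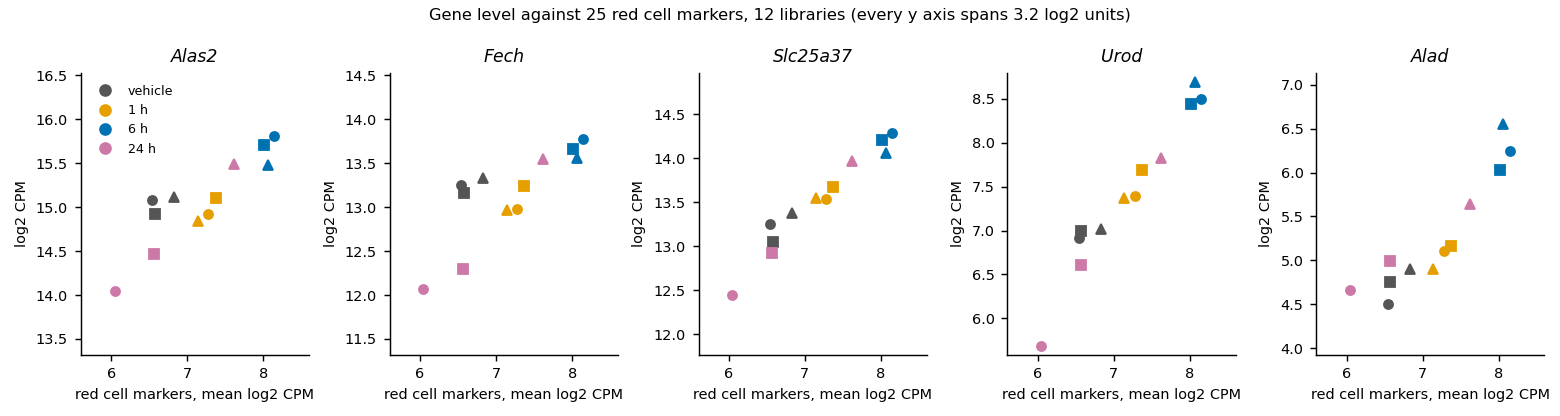
Log2 CPM of 5 genes against the mean log2 CPM of 25 red cell markers, 1 point per library, coloured by group and shaped by replicate number, with every y axis spanning the same range. The Alas2 and Fech points of vehicle lie above the course of the treated libraries, and Urod and Alad rise with the markers through 6 h.

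Genes with the most similar course over the 12 libraries, by Pearson's r of log2 CPM among 9940 named genes, were Dazap2 (0.99), Isca1 (0.99) and Sh3glb1 (0.99) for Alas2. For Slc25a37 they were Rnf10 (1.00), Slc25a51 (0.99) and Tab3 (0.99), and for Fech Slc48a1 (0.99), a haem transporter, Ptp4a3 (0.98) and Oaz1-ps (0.98). Urod was most like Tmcc2 (0.99), Wapl (0.99) and Dcun1d1 (0.99), and Alad most like Fig4 (0.97), Agfg1 (0.97) and Tmem86b (0.97). Uros was most like Rab11a (0.95), Armcx1 (0.94) and Tmem80 (0.94). The scarce members Cpox (Pnrc2, 0.91), Ppox (Hsd17b11, 0.87) and Slc25a38 (Mtmr14, 0.88) had less close partners. These values are descriptions, and the libraries share group and scaling.

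Around the pathway, genes that supply, surround and use haem synthesis were described from lists written with earlier results known. Counts of their called members are therefore no test of enrichment. At 6 h 4.12% of all genes tested were called higher, and the median over all genes was -0.04. Of 10 genes of glycine and succinyl-CoA supply, 4 were higher at 6 h and 0 lower, with a median of -0.01. They were Ogdh (1.31, SE 0.21, adjusted p = 0.0024), of the complex that makes succinyl-CoA, the glycine transporter Slc6a9 (1.54, adjusted p = 0.020), Shmt2 (1.62, adjusted p = 0.022), which makes glycine in mitochondria, and Mthfd2 (1.19, adjusted p = 0.024). Ogdh went from 150 ± 16.1 to 373 ± 23.6 CPM (SD, n = 3). The lowest value was that of Suclg2, a succinyl-CoA synthetase subunit, at -0.93 (adjusted p = 0.30).

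Of 13 genes of porphyrin transport and assembly, Alas1 included, Tspo2 (2.27, SE 0.53, adjusted p = 0.024), an erythroid relative of the translocator protein, and Fam210b (1.27, adjusted p = 0.043) rose at 6 h, and the median was 0.47. Alas1 had the lowest value, -0.31. The 18 tested genes of iron uptake and iron-sulfur clusters had a median of 0.41, and those that rose included Nfs1 (1.61, adjusted p = 0.023), the cysteine desulfurase, and Hscb (1.33, adjusted p = 0.045), a cochaperone. The transferrin receptor Tfrc had 0.97 (adjusted p = 0.23) and did not pass, and Fdxr was lowest, at -1.11 (adjusted p = 0.33).

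Of 13 tested genes of haem use and breakdown, 4 rose at 6 h: Blvrb, a biliverdin reductase (2.46, SE 0.36, adjusted p = 0.0015), Eif2ak1, the haem-regulated kinase of translation (1.38, adjusted p = 0.0033), and the beta globins Hbb-bt (1.38, adjusted p = 0.0103) and Hbb-bs (1.52, adjusted p = 0.017). The median was 0.88, Hba-a2 had the highest value (2.77, adjusted p = 0.099), Flvcr1 the lowest (-0.37, adjusted p = 0.20), and Hmox1 did not pass (-0.28, adjusted p = 0.40). The globins are near-identical copies whose reads can be split between them. Of 10 erythroid transcription factors, 5 rose: Gata1 (1.72, SE 0.20, adjusted p = 0.00036), Nfe2 (0.91, adjusted p = 0.013), Tal1 (0.72, adjusted p = 0.022), Gfi1b (0.83, adjusted p = 0.029) and Lmo2 (1.03, adjusted p = 0.044). Their median was 0.69, Klf1 had 0.55 (adjusted p = 0.55) and Ldb1 was lowest, at -0.08. None of these lists had a member called lower at 6 h in edgeR. Of all genes tested, 4.12% were called higher there and 0.799% lower.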

How the data were processed

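RNA of whole blood was extracted with a PAXgene kit, depleted of ribosomal RNA and read as 150-base pairs, per the labels' protocols. The deposited values are whole-number counts per mouse Ensembl gene, not scaled to library size. RSEM, with no version, and hg38, a human build, stand in the submitters' processing notes. The identifiers are nevertheless mouse, and RSEM output would be estimates rounded before deposit. The aligner, annotation release and strand setting were not given in the sources used here. GENCODE M21 (GRCm38) held 55111 of the 55367 identifiers and gave positions and exon lengths. Promoter bases are from RefSeq.

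edgeR 4.0.16 in R 4.3.3 fitted a quasi-likelihood model of 4 group means to all 12 libraries, after filterByExpr and TMM, and tested 7 comparisons, with Benjamini-Hochberg adjustment over 13384 genes at 0.05. Log2 CPM used a prior count of 2. limma 3.58.1 and DESeq2 1.42.0 were alternatives, beside other scalings and filters, only the groups compared, the replicate block and each library left out. The fit was tested on simulated data. All members were named. Of each list, up to 6 genes past the threshold at 6 h were named with its extremes and, for each member, the genes most alike. Members and lists were chosen with earlier results of these data known. Other genes given values, such as Hmox1 and Klf1, were chosen after their values were seen. Some list members are not reported here.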

Additional observations from a re-analysis of the deposited data

Results flagged for a closer look

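Alad and Urod differed between collection times in the edgeR test of that difference. Alad was higher at 6 h than at 1 h by 1.24 on the log2 scale (edgeR adjusted p = 0.036). All 3 libraries at 6 h lay above all 3 at 1 h, as for 18.1% of all genes. From 6 to 24 h the log2 change of Alad was -1.15 (edgeR adjusted p = 0.031) and that of Urod -1.59 (edgeR adjusted p = 0.043). In each, all 3 libraries at 24 h lay below all 3 at 6 h, as for 12% of all genes. These calls were not firm. With 1 library left out, Alad lost its call in 8 of 12 fits for 6 against 1 h. For 24 against 6 h Alad lost it in 9 and Urod in 11, and the fit of those libraries alone called 0 genes.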

How the results depend on the processing

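Alad, Uros and Urod stayed higher at 6 h than in vehicle, past the threshold, under all 8 alternatives other than leaving out 1 library. These include the fit of vehicle and 6 h libraries alone. The number of members called moved by more than 1.5 times as follows, with the share of all genes called by each fit in brackets. At 6 h against vehicle it was 6 with only the groups compared (11.3%). At 24 h against vehicle it was 1 with no filter (0.916%). For the mean of the 3 times it was 3 with no filter (1.93%) and 2 with DESeq2 (2.76%). For 6 h against 1 h it was 3 with no filter (4.74%), 2 with DESeq2 (6.34%) and 5 with only the groups compared (14.1%). For 24 h against 6 h it was 5 with no filter (5.71%), 6 with DESeq2 (9.1%) and 0 with only the groups compared (0%). With 1 library left out, the number ran from 1 to 5 at 6 h against vehicle (1.76% to 9.13% of all genes). It ran from 0 to 1 at 24 h against vehicle (0.0218% to 0.845%) and from 0 to 3 for the mean (0.102% to 2.64%). For 6 h against 1 h it ran from 0 to 6 (0.0218% to 9.32%). For 24 h against 6 h it ran from 0 to 7 (0% to 16.1%). For 24 h against 1 h it ran from 0 to 3 (0% to 1.53%). The cause was not tested.

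Of the log2 fold changes, 42 values turned in direction, none of a member called in the comparison. With library totals alone, those against vehicle became -0.00633 for Slc25a38 at 1 h, -0.14 for Ppox and -0.041 for Fech at 6 h, and -0.022 for Slc25a37 at 24 h. For the mean they became -0.076 for Alas2, -0.056 for Cpox and -0.016 for Ppox. Ppox became -0.24 for 6 h against 1 h, and for 24 h against 6 h Ppox became 0.13 and Slc25a38 0.029. With limma-voom, Slc25a37 became -0.094 at 24 h against vehicle, and for 24 h against 1 h Uros became -0.047 and Slc25a38 -0.019. With only the groups compared, Urod became 0.0016 at 24 h against vehicle. With the replicate block, Slc25a38 became -0.011 at 1 h and Slc25a37 -0.032 at 24 h against vehicle.

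With 1 library left out, the log2 fold changes that turned spanned -0.022 to 0.45 for Ppox, -0.17 to 0.28 for Slc25a38 and -0.087 to 0.26 for Cpox at 1 h against vehicle. They spanned -0.032 to 0.63 for Ppox at 6 h against vehicle. They spanned -0.35 to 0.36 for Slc25a38, -0.52 to 0.31 for Slc25a37, -0.76 to 0.36 for Urod, -0.24 to 0.22 for Ppox and -0.78 to 0.024 for Alas2 at 24 h against vehicle. They spanned -0.044 to 0.42 for Ppox, -0.28 to 0.011 for Fech and -0.074 to 0.19 for Alas2 for the mean of the 3 times. They spanned -0.15 to 0.51 for Ppox at 6 h against 1 h. They spanned -0.87 to 0.038 for Slc25a38 at 24 h against 6 h. They spanned -0.37 to 0.30 for Slc25a38, -0.70 to 0.086 for Alas2, -0.23 to 0.27 for Alad and -0.58 to 0.59 for Uros at 24 h against 1 h.

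Replicate numbers are shared across groups but name no common animal or batch. Deviations of same-numbered libraries correlated between -0.11 and 0.17, and 6 of 12 libraries correlated best with their own number. With the replicate block, 3 members were called at 6 h against vehicle, where 4.72% of all genes were. For 6 h against 1 h 1 was called (0.62% of all genes) and for 24 h against 6 h 2 (3.69%). These counts of members were the same without the block. Uros had 47 to 59 counts in vehicle libraries, so counting error adds to the spread of its values.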
